A study of Homo sapiens with 2 samples.

Results

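Microexons are exons of at most 27 bases, and the table of skipped exons deposited for this series held 525 of them among 67154 distinct exons. They were chosen by length alone: distinct exons were told apart by position and strand, and an exon was a member when its end minus its start came to 27 bases or fewer. The series measured polyadenylated RNA of HEK293T, a human cell line that was established from embryonic kidney. It compared 1 library of untreated control cells with 1 library of cells given amiloride, a diuretic and blocker of sodium channels, at 300 µg/mL for 6 h. The libraries had been compared with rMATS, which weighs reads that include an exon against reads that skip it, and each event, an exon with 1 choice of flanking exons, carries an FDR and an inclusion level difference, in which the inclusion level (0 to 1) of the library numbered second is subtracted from that of the library numbered first. The numbered libraries are not named by condition, so no sign is assigned to amiloride, and with no replicates a difference is one between libraries, without replicate error, and not one between conditions. The tables hold no expression levels, so the identity of the cells could not be checked against marker genes, and the reads per library were not used.

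Very short exons are hard for the spliceosome to define, because factors that bind at the 3' splice site (3'SS) and the 5' splice site (5'SS) have little room beside each other. Many microexons keep the reading frame and insert a few residues at the surface of a protein, often beside a domain that binds other proteins. In neurons a large program of microexons is included by SRRM4, a splicing factor that binds UGC motifs just upstream of the exon. Genes with such neuronal microexons act in vesicle traffic, cytoskeletal remodelling and cell adhesion.

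Microexons recur in paralogs, and the 15 exons below, from 7 gene families, are shown because family members that share a microexon could be set side by side. Each sequence is given 5' to 3' on GRCh37 with 30 intronic bases before the exon, the exon in capitals and 10 intronic bases after it, and the coordinates span the whole printed stretch on the strand named. The families encode heterogeneous nuclear ribonucleoproteins (HNRNPM, MYEF2), scaffolds of microRNA silencing (TNRC6A, TNRC6B), exchange factors for Rap GTPases (RAPGEF2, RAPGEF6), regulators of cytoplasmic polyadenylation (CPEB2, CPEB4), ubiquitin-conjugating enzymes (UBE2A, UBE2B), death-associated kinases (DAPK1, DAPK2, DAPK3) and microtubule affinity-regulating kinases (MARK2, MARK3).
HNRNPM, chr19:8528351-8528398, + strand: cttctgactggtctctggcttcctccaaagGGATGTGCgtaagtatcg
MYEF2, chr15:48458308-48458355, - strand: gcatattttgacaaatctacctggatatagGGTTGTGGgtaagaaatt
TNRC6A, chr16:24769630-24769691, + strand: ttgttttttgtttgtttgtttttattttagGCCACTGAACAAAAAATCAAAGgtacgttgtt
TNRC6B, chr22:40647153-40647214, + strand: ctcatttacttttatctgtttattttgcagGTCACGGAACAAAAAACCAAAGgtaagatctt
RAPGEF2, chr4:160265158-160265221, + strand: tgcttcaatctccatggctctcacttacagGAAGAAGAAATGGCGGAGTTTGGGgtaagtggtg
RAPGEF6, chr5:130785706-130785769, - strand: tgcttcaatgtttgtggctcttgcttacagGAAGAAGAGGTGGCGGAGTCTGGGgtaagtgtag
CPEB2, chr4:15042058-15042121, + strand: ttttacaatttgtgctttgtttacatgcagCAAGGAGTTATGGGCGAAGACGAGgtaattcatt
CPEB4, chr5:173369999-173370062, + strand: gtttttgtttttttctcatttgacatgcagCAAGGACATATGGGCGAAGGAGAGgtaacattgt
UBE2A, chrX:118709308-118709373, + strand: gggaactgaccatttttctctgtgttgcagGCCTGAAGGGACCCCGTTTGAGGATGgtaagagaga
UBE2B, chr5:133712330-133712395, + strand: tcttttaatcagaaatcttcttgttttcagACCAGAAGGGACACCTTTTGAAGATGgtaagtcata
DAPK1, chr9:90254674-90254740, + strand: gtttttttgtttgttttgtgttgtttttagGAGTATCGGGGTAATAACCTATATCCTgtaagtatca
DAPK2, chr15:64221740-64221806, - strand: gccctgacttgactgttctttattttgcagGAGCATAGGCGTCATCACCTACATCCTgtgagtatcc
DAPK3, chr19:3963631-3963697, - strand: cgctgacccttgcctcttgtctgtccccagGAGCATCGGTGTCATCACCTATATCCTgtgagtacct
MARK2, chr11:63673530-63673596, + strand: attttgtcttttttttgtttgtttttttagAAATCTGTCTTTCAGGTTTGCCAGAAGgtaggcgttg
MARK3, chr14:103964809-103964875, + strand: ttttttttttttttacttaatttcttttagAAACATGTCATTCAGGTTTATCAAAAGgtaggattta

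A further 11 exons are shown because the values below turn on them. PITPNC1, KIF3A, MYO5A and AP1B1 carried called exons of 8 or 9 bases, FCHO2, MED23 and SUCO the largest positive differences among called microexons, and PTPRS, ERC1, ROBO1 and VAV2 are genes with neuronal microexons. All 26 printed exons are annotated as coding, and 23 of them belong to the canonical transcript of their gene. The exceptions are the exons of RAPGEF6, MED23 and ERC1, which are used only in other transcripts.
PITPNC1, chr17:65549696-65549743, + strand: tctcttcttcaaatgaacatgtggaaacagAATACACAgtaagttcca
KIF3A, chr5:132042133-132042181, - strand: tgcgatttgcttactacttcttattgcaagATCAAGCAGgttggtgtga
MYO5A, chr15:52641005-52641053, - strand: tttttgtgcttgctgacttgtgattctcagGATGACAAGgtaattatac
AP1B1, chr22:29725691-29725739, - strand: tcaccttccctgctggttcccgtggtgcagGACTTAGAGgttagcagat
FCHO2, chr5:72349957-72350008, + strand: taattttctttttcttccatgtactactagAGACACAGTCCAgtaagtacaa
MED23, chr6:131936454-131936511, - strand: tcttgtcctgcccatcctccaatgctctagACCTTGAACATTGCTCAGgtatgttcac
SUCO, chr1:172546649-172546709, + strand: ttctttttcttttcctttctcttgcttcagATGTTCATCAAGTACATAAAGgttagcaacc
PTPRS, chr19:5218788-5218839, - strand: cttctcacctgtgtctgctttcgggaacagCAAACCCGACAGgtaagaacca
ERC1, chr12:1313637-1313688, + strand: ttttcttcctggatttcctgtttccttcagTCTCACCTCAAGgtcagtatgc
ROBO1, chr3:78696769-78696835, - strand: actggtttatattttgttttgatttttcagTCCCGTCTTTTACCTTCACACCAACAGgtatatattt
VAV2, chr9:136645030-136645091, - strand: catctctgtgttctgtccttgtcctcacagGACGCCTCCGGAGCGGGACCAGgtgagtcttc

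The 525 microexons lay in 461 genes. In 412 of these genes there was 1 microexon, in 49 there were more, and 4 was the most in a gene. Their length ran from 3 to 27 bases with a median of 23. Multiples of 3 stood out in the counts by length, with 28 exons of 12 bases, 41 of 18, 68 of 24 and 95 of 27. In all, 317 microexons (60.4%, 95% Wilson interval 56.1 to 64.5) had a length that keeps the reading frame, beside 38.6% of the 66629 longer exons. Of the microexons 491 were coding, 15 lay in a 5' UTR, 1 in a 3' UTR and 7 in non-coding transcripts, and 11 were not annotated as exons. Coding means overlap with an annotated coding sequence in a transcript of any type. The 15-base exon of HELLS, for example, was in none of the 6 protein-coding transcripts that span it. The canonical transcript of the gene held 412 of them (78.5%), beside 92.9% of longer exons. All Wilson intervals here cover counting error only, and exons of a gene are not independent.

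**Figure D1:**
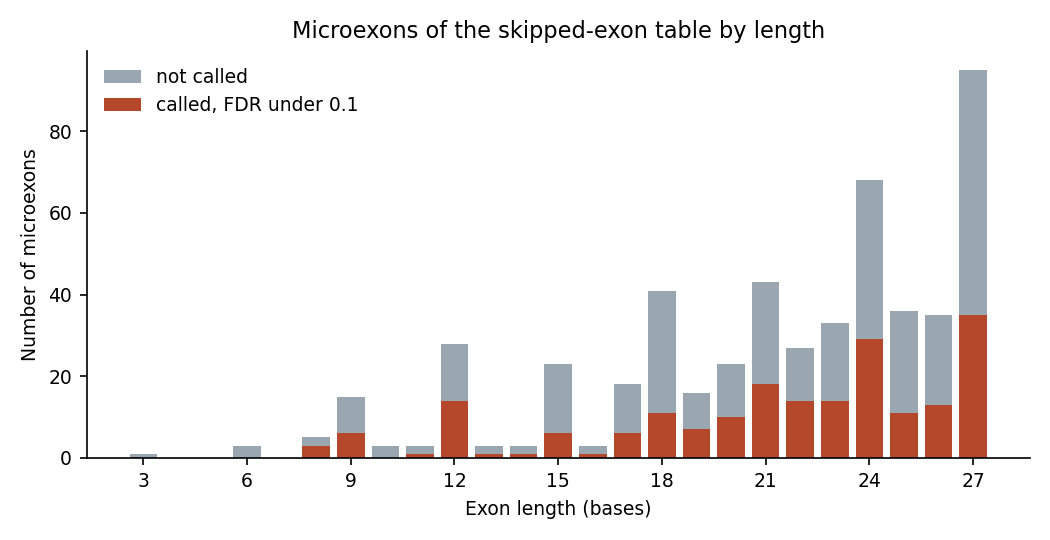
Number of microexons at each exon length in bases, stacked by whether the exon had an event with an FDR under 0.1 (called) or not. The bars at 12, 15, 18, 21, 24 and 27 bases, multiples of 3, rise above their neighbours, and 35 of the 95 exons of 27 bases were called.

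A microexon counts as called where at least 1 event reached an FDR under 0.1. Of the 525 microexons 201 were called, which is 38.3% (34.2 to 42.5), and over all exons the share was 35.8%, so the share among microexons lay near the background. The difference was positive in 188 called microexons, 35.8% of all members beside 34.2% for all exons. It was negative in 13, which is 2.48% (1.45 to 4.19) beside 1.54%. The called microexons had a median size of difference, sign aside, of 0.153 (quartiles 0.074 and 0.302), and called exons of any length had 0.115. A size of 0.1 or more was reached by 129 called microexons, 24.6% of members (21.1 to 28.4) beside 19.7% of all exons. Without regard to the call, the median difference was 0.043 over microexons and 0.025 over all exons. The microexons that were not called also had larger differences, with a median size of 0.030 beside 0.015. Both called and uncalled microexons thus lay farther from 0 than exons of any length. This was not particular to microexons. Exons of 28 to 33 bases had a median size of 0.177 when called and 0.030 when not, and those of 34 to 50 bases 0.155 and 0.024.

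The share of called exons varied little with length among microexons. It was 37.5% of the 24 exons of 3 to 9 bases, 36.5% of the 63 of 10 to 15 bases, 36.8% of the 144 of 16 to 21 bases and 39.5% of the 294 of 22 to 27 bases, and the intervals of these classes overlapped. Among longer exons it was 42.0% (37.6 to 46.5) at 28 to 33 bases, 49.6% (47.7 to 51.5) at 34 to 50 bases and 19.5% above 300 bases. The interval at 28 to 33 bases overlapped that of all microexons (34.2 to 42.5), and the interval at 34 to 50 bases lay above it. Just inside the limit, 59 of 166 exons of 25 to 27 bases were called (35.5%, 28.7 to 43.1), with a median difference of 0.049 over all 166. Just outside it, 76 of 180 exons of 28 to 30 bases were called (42.2%, 35.2 to 49.5), with a median difference of 0.052, and the intervals overlapped.

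**Figure D2:**
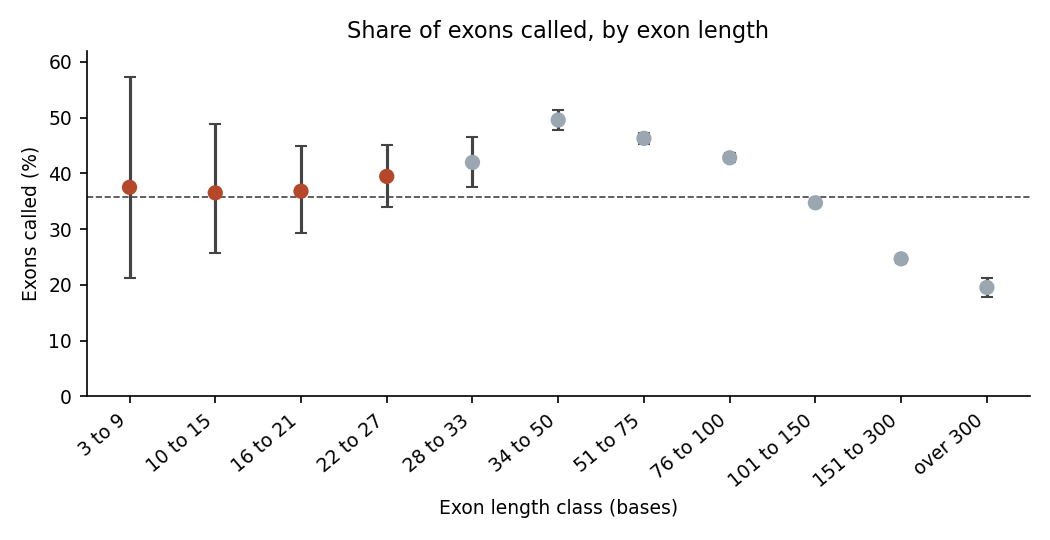
Share of exons called (FDR under 0.1) in 11 classes of exon length, with 95% Wilson intervals. The 4 classes of microexons (orange) lie between 36.5% and 39.5%, close to the share over all exons (dashed line, 35.8%), and the highest share, 49.6%, is at 34 to 50 bases.

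Microexons that keep the reading frame and those that do not had similar shares of calls, with overlapping intervals. Of the 317 microexons whose length is a multiple of 3, 119 were called (37.5%, 32.4 to 43.0), and of the other 208, 82 (39.4%, 33 to 46.2), a difference of -1.88 percentage points. This difference turned positive, to 3.42 points, when calls also needed a size of 0.1, and to 2.63 points with exons of up to 30 bases. Over all exons the share was 33.4% for multiples of 3 and 37.2% for other lengths. Negative differences made up 10 of the 119 calls in the frame-keeping microexons and 3 of the 82 in the others.

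The shortest microexons are described first. PITPNC1, a phosphatidylinositol transfer protein, carries an exon of 8 bases that is exon 4 of 9 in the canonical transcript. Its difference was 0.084 (FDR 9.6e-05) in the event of lowest FDR, and over its 3 events it ranged from 0.084 to 0.680. HNRNPM, a splicing regulator, has an exon of 8 bases with a difference of 0.089 (FDR 1.4e-07) in 1 of 2 events and -0.003 in the other. The 8-base exon of its relative MYEF2, identical at 6 of 8 positions, had 0.242 and was not called (FDR 0.43).

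KIF3A encodes a motor subunit of kinesin-2, which carries cargo along the microtubules of cilia and axons. Its exon of 9 bases, exon 11 of 19, had the largest difference among called exons of at most 9 bases, 0.421 (FDR 2.1e-13). The 9-base exon of MYO5A, an actin motor that moves vesicles and melanosomes, had 0.215 (FDR 0.020). COL6A1, a collagen chain, had 0.170 (FDR 0.027) and AP1B1, a large subunit of the AP-1 clathrin adaptor, 0.109 (FDR 3.1e-07) at 9 bases. The 15 exons of at most 9 bases that were not called ran from -0.210 in ABCA2 to 0.488 in HOOK2, and 10 of them lay within 0.02 of 0. Among these, AP1S2, the small subunit of the same adaptor, had 0.003, MAP4K4 0.020 and PTPRS 0.000, while IFFO1 had 0.177 (FDR 0.18), above the called exon of AP1B1. MTSS1L was the single called exon of this class with a negative difference, -0.049 (FDR 0.036), and 1 of its 3 events had 0.082. Called exons of at most 9 bases also included a stretch of 8 bases in PITPNA (0.320) and one of 9 bases in DIAPH1 (0.079). Both are uncertain as exons, since neither is annotated nor lies between AG and GT. The bases beside them were TG and AG in PITPNA, and GC and TG in DIAPH1.

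Of the 6 largest positive differences among called microexons, 5 came from exons with more than 1 event. Another 5 microexons had a difference of 1 in a single event and were not called. The 18-base exon of MED23, a subunit of Mediator, which links transcription factors to RNA polymerase, had 0.941 (FDR 3.6e-04) in 1 event and -0.035 in the other. FCHO2, an F-BAR protein that bends membrane at sites of clathrin-mediated endocytosis, has an exon of 12 bases with 0.934 (FDR 3.6e-09) in 1 event and 0.051 in the other. The 21-base exon of SUCO, a protein of the endoplasmic reticulum, was called in both events, with 0.925 (FDR 2.5e-07) and 0.281. KIF21A, a kinesin, had 0.898 (FDR 6.5e-04) and -0.104 at 21 bases, with both events called, and DEDD2, which has a death effector domain, 0.892 (FDR 0.0021) and 0.010 at 22 bases. The exon of 27 bases assigned to TRIM6-TRIM34, a readthrough of neighbouring genes that shares exons with TRIM34, had 0.914 (FDR 0.076) in its single event. In 4 of these 6 exons the value near 1 thus belonged to 1 event and the other event lay between -0.104 and 0.051.

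Among the exons of lowest FDR, 36 had an FDR listed as 0. The 2 exons of URGCP, a regulator of cell proliferation, led these in size. The exon of 27 bases had 0.792 in 1 event and -0.042 in the other, which was not called, and the exon of 22 bases had 0.746. The first is annotated as coding and the second lies in the 5' UTR of another transcript. They share a 5'SS and overlap, so they are not separate observations. SECISBP2L, related to the factor that reads selenocysteine signals, had 0.685 at 25 bases. BRCC3, a deubiquitinase of a BRCA1 complex, had 0.606 at 17 bases with 2 of 3 events called. CCDC66, a protein of centriolar satellites, had 0.584 at 26 bases in 1 event and -0.046 in the other.

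ULK3, a kinase of the autophagy family, had 0.533 at 22 bases in a non-coding transcript. RBBP5, a core subunit of histone H3 lysine 4 methyltransferases, had 0.505 at 26 bases. GAS5, a long non-coding RNA that hosts small nucleolar RNAs, had 0.481 at 23 bases with 3 of 7 events called. The exons of RPL41 (0.026), SNRPG (0.082), UQCRH (0.044) and PTGES3 (0.068), also with an FDR listed as 0, belong to genes with many processed copies in the genome, and their values are uncertain where reads were shared with those copies.

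The negative differences of called microexons lay between -0.277 and -0.010 apart from DTNB. The 21-base exon of DTNB, a dystrobrevin of the complex that anchors the cytoskeleton to the membrane, had -1 (FDR 0.0073) in 1 of 2 events and -0.056 in the other. TTPAL, a relative of the tocopherol transfer protein, had -0.277 (FDR 8.6e-07) for an exon of 24 bases in its 5' UTR. HELLS, a chromatin remodeller needed for DNA methylation, had -0.263 (FDR 0.015) at 15 bases. The 27-base exon of ROBO1, a receptor for the axon guidance cue Slit, had -0.153 (FDR 5.0e-08), while the median of the 9 longer exons of that gene was 0.021. SLC25A51, the mitochondrial NAD carrier, had -0.169 (FDR 1.1e-04) at 27 bases in a stretch not annotated as an exon. GPATCH8 had -0.106 (FDR 0.0071) at 18 bases, and the other negative calls lay between -0.068 in CD47 and -0.010 in SFT2D1. Of the 13 negative calls 6 were in exons of the canonical transcript and 7 in the 113 exons outside it.

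Exons outside the canonical transcript were called as often as those within it, 43 of 113 (38.1%) and 158 of 412 (38.3%). Their calls were positive in 83.7% (70.0 to 91.9), beside 96.2% (92.0 to 98.2) in the canonical transcript. All exons of the table showed a like split, 83.4% and 96.6%. The median difference over all members, called or not, was 0.015 outside the canonical transcript and 0.061 within it.

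Genes known for neuronal microexons were a list of their own, and 40 microexons in 33 of them were in the table. Genes were taken by symbol, so these are any microexons of those genes. Whether each is one regulated in neurons was not checked. Of these 12 were called (30%, 18.1 to 45.4), 11 with a positive difference and 1, ROBO1, with a negative difference. In the longer exons of the same list 34.4% were called. The median difference over the 40 was 0.023, beside 0.043 over all microexons. VAV2, an exchange factor for small GTPases, had the largest, 0.655 (FDR 9.3e-06), for an exon of 22 bases that is exon 21 of 30. The 17-base exon next to it, exon 20, had 0.008, and the 15-base exon 6 had 0.006, neither of them called (FDR 1 for both).

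RAPGEF2, which activates Rap GTPases, had 0.257 (FDR 1.8e-04) at 24 bases. PTPRS, a receptor phosphatase that binds proteoglycans at synapses, had 0.158 (FDR 2.8e-04) for its exon of 12 bases, exon 24 of 38, and 0.000 and -0.140 for its uncalled exons of 9 and 18 bases. CLASP1, which stabilises microtubule plus ends, had 0.141 (FDR 0.0022) at 24 bases and 0.054 (FDR 0.0068) at 27, while the 18-base exon of CLASP2 had 0.014 (FDR 0.54). Within a gene, therefore, microexons of these genes had unlike values, and the differences between them were not tested.

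The other called exons of this list had smaller differences. ERC1, a scaffold of vesicle release sites, had 0.095 (FDR 4.1e-05) at 12 bases, and PICALM, which assembles clathrin, 0.074 (FDR 0.0034) at 24 bases. SPTAN1, the alpha chain of spectrin, had 0.038 (FDR 0.0019) at 18 bases and 0.015 (FDR 0.20) at 15 bases. ABI1, a subunit of the WAVE complex of actin assembly, had 0.033 (FDR 1.8e-04) at 15 bases, and GOPC, a PDZ protein of the Golgi, 0.029 (FDR 0.0029) at 24 bases. Among exons that were not called, ROBO2 had 0.073 (FDR 0.33) at 12 bases and DST, a cytoskeletal linker, 0.063 (FDR 0.67) at 18 bases.

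**Figure D3:**
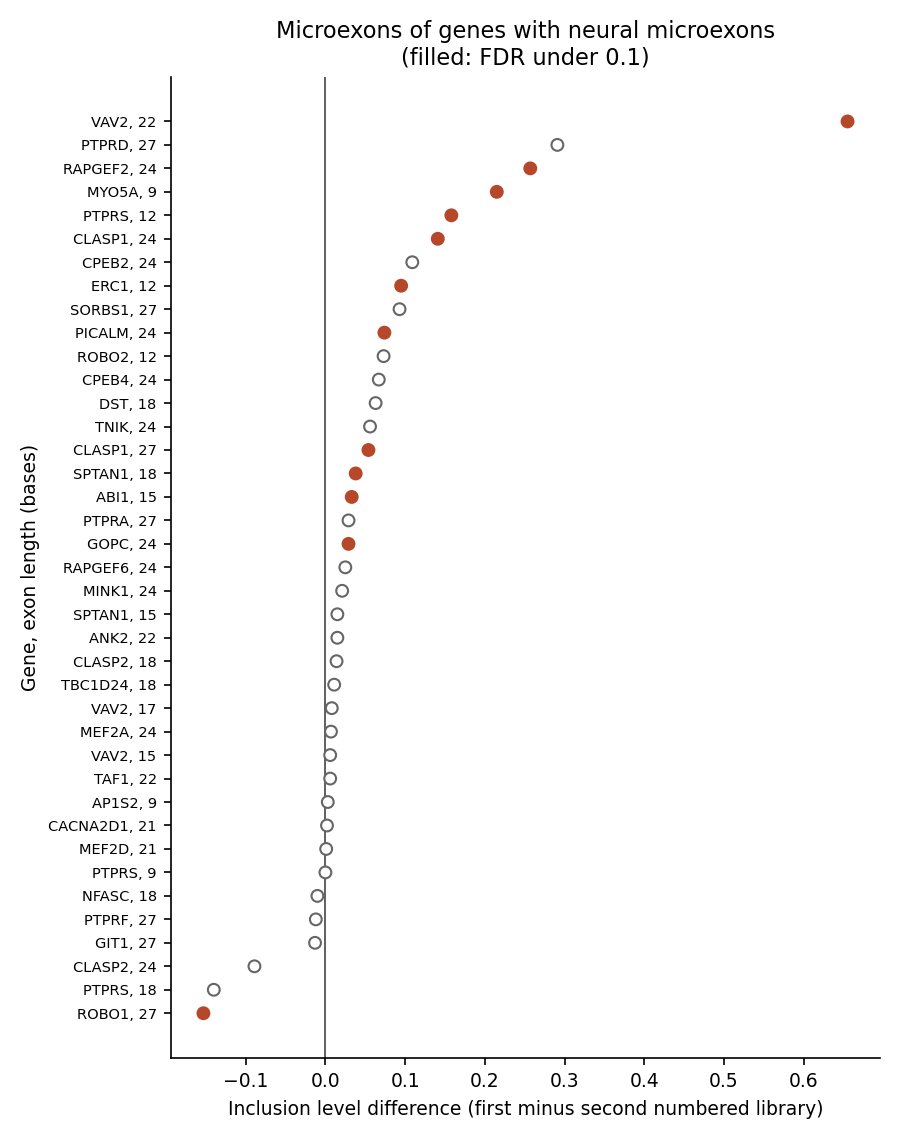
Inclusion level difference (x axis, first minus second numbered library) of the microexons of genes with neuronal microexons, labelled by gene and exon length in bases; of the 40, 1 that was not called is not drawn. Filled points are the 12 exons with an FDR under 0.1. They run from -0.153 in ROBO1 to 0.655 in VAV2, and most of the other points lie close to 0.

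The other 6 lists grouped the microexons by the gene's function, and each share of calls stood near the background within its interval. Among regulators of the cytoskeleton and of GTPases 14 of 41 were called (34.1%, 21.6 to 49.5), all with a positive difference in the event of lowest FDR and a median size of 0.235. Besides KIF3A, VAV2 and KIF21A they included MARK3 at 0.255 (FDR listed as 0) and MARK2 at 0.289 (FDR 8.7e-08), kinases that release microtubule-associated proteins from microtubules. Of the kinases and phosphatases 10 of 34 were called (29.4%, 16.8 to 46.2), all positive. MAP3K5, a kinase of the stress response, had 0.315 (FDR 2.5e-11) at 21 bases. The list took genes by symbol, and MAPK1IP1L at 0.104 (FDR 1.6e-13) is not itself a kinase.

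In vesicle and membrane traffic 7 of 18 were called (38.9%, 20.3 to 61.4), all positive. STX16, a SNARE of the trans-Golgi, had 0.301 (FDR 3.7e-07) at 12 bases with events at 0.301 and 0.181, and GOLGA4, a tether of the Golgi, had 0.144 (FDR 8.6e-07) at 21 bases. For proteins of RNA processing and translation 7 of 14 were called (50%, 26.8 to 73.2), all positive. PRPF38A, a protein of the spliceosome, had 0.288 at 27 bases with an FDR listed as 0. The 26-base exon in the 5' UTR of HNRNPC, an RNA-binding protein that coats nascent transcripts, had 0.048, also with an FDR listed as 0.

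For cell adhesion and surface proteins 6 of 20 were called (30%, 14.5 to 51.9), 4 positive and 2 negative. CD55, which protects cells from complement, had 0.212 at 21 bases with an FDR listed as 0. ADGRL1, a latrophilin, had 0.147 (FDR 2.1e-07) at 18 bases and 0.217 (FDR 1.4e-04) at 15 bases. Transcription and chromatin had 5 of 13 called (38.5%, 17.7 to 64.5), 4 positive. Besides MED23 these were small, with 0.096 (FDR 2.4e-04) in the histone methyltransferase SETD2, 0.020 (FDR 2.5e-06) in PHF5A, which is a subunit of the splicing factor SF3b, and -0.050 (FDR 4.8e-04) in the transcription activator CAMTA2. In total 133 microexons were on a list and 392 on none.

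Pairs of microexons of equal length in different genes with at least 75% identical bases numbered 29, most of them in paralogs. Both members were called in 3 pairs, 1 member in 11 and neither in 15, and pairs that share a gene are not independent. In MARK2 and MARK3, whose 27-base exons are identical at 21 positions, both were called with 0.289 and 0.255. Each had another event near 0. In UBE2A and UBE2B, the enzymes of DNA damage tolerance that are printed above, the 26-base exons are identical at 21 positions. UBE2A had 0.064 (FDR 0.0045) and UBE2B 0.146 (FDR listed as 0), the latter called in all 3 events. The third pair, PPIE and PPIEL, had 0.017 and 0.200, and PPIEL is a pseudogene of PPIE, and whether reads were divided between them was not tested.

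In other families only some members were called, or none, and differences between members were not tested. The 22-base exon of TNRC6A had 0.610 (FDR 2.2e-12), but its 6 events ran from -0.680 to 0.610, and that of TNRC6B, identical at 19 positions, had 0.068 (FDR 0.22). RAPGEF2 and RAPGEF6, identical at 21 of 24 positions, had 0.257 and 0.025 (FDR 0.34 for the latter). DAPK3 had 0.135 (FDR listed as 0) in the event of lower effect and 0.560 in the other. The corresponding exons had 0.132 in DAPK2 (FDR 0.88) and 0.028 in DAPK1 (FDR 0.80). The difference of DAPK2 was thus near that of DAPK3 only in the DAPK3 event of lower effect, and their calls were unlike. A call depends on the reads behind an event, which were not used. CPEB2 and CPEB4 had 0.109 (FDR 0.105) and 0.067 (FDR 0.28), and neither was called. The 20-base exons of the calcium channel subunits CACNB1, CACNB2, CACNB3 and CACNB4 ran from -0.147 to 0.412 with no call.

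**Figure D4:**
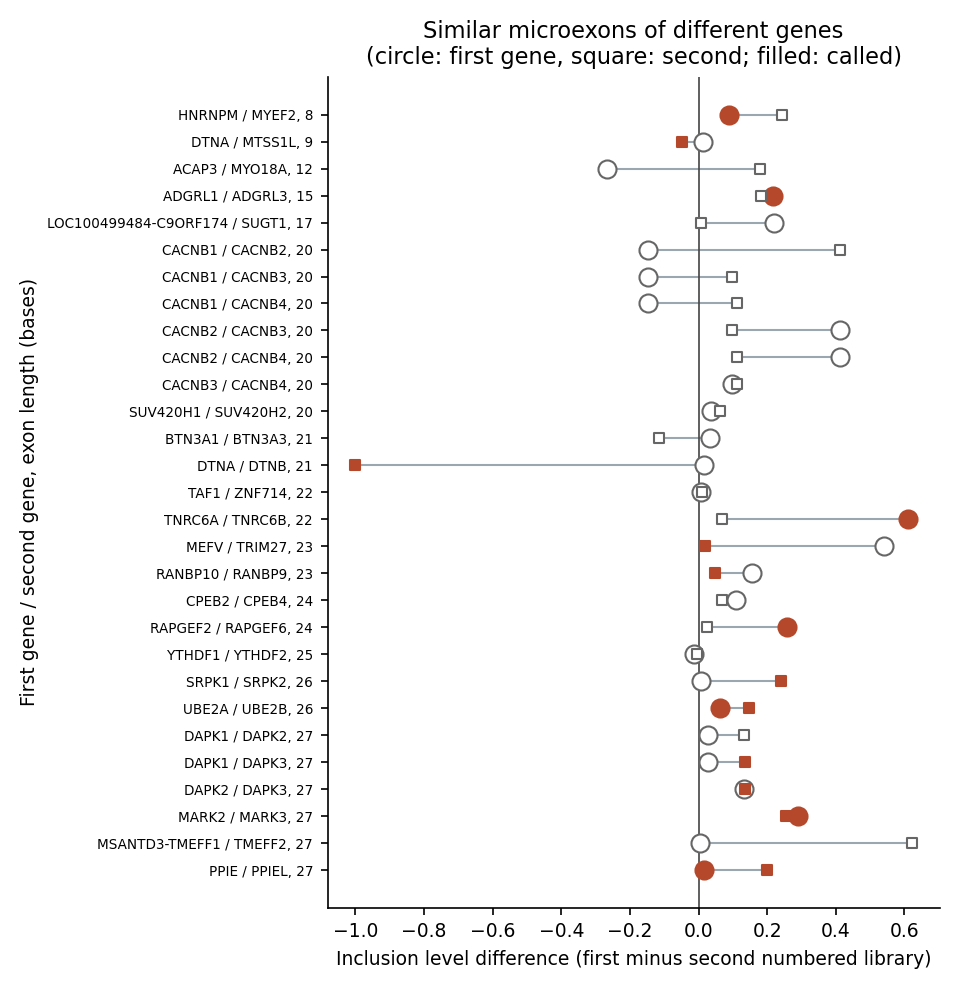
Inclusion level difference of the 29 pairs of similar microexons of equal length in different genes, with the first gene as a circle and the second as a smaller square. Filled symbols are called (FDR under 0.1). MARK2 and MARK3 lie together at 0.289 and 0.255, and TNRC6A (0.610) stands apart from TNRC6B (0.068).

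Pyrimidines before the exon and the splice site motifs were measured on the genome sequence. The percentage of pyrimidines from 25 to 6 bases before the exon averaged 76.3% ± 11.6 (SD, n = 525) in microexons and 71.4% ± 11.6 in the 66629 longer exons. The 5'SS score and the 3'SS score, which add up, base by base, the log2 ratio of the frequency at annotated sites over equal frequencies, averaged 8.21 ± 4.62 and 9.61 ± 5.47 in microexons, and 7.76 ± 2.80 and 9.10 ± 3.45 in longer exons. Exons of 28 to 50 bases (n = 3178) averaged 73.7% ± 11.2 pyrimidines. They averaged 8.34 ± 2.75 for the 5'SS score and 10.45 ± 3.28 for the 3'SS score, both above the averages over all microexons. The averages over all microexons include exons not flanked by AG and GT. In the 412 microexons of the canonical transcript the 5'SS and 3'SS scores averaged 8.84 and 10.4, and in the other 113 they averaged 5.92 and 6.81. Exons not flanked by AG and GT, 8 of these 113 and 1 of the 412, scored far lower in 1 or both scores. Without them the averages were 8.89 and 10.4 in the canonical transcript and 7.89 and 8.01 outside it. The 5'SS average of 8.34 at 28 to 50 bases lay between 8.89 and 7.89, so the order differed between these groups. No test was made across exons.

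Called and uncalled microexons overlapped widely in these scores. The mean 5'SS score was 8.0 ± 5.18 in the 201 called and 8.34 ± 4.23 in the 324 others, a difference of -0.34 that became 0.18 when exons with exactly 1 event were used. The mean 3'SS score was 9.84 ± 6.07 in the called and 9.47 ± 5.07 in the others, a difference of 0.37, and among longer exons the difference was -0.25. Among the 87 exons of up to 15 bases this 3'SS difference was -1.14, and it was 0.30 in the 83 of them flanked by AG and GT, an alternative chosen after seeing the data. The intron downstream had a median length of 2221 bases beside called microexons and 1436 bases beside the others, and longer exons had 2238 and 2389.

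The motif TGC, which reads UGC in RNA, was looked for on the transcribed strand in the 30 bases before the exon. It was found before 218 microexons (41.5%, 37.4 to 45.8) and before 41.3% of all exons in a window of the same length. It was present before 72 of the 201 called (35.8%, 29.5 to 42.7) and before 146 of the 324 others (45.1%, 39.7 to 50.5), and in longer exons before 41.1% and 41.4%. In the sequences above it can be read before 14 of the 26 exons. Of these 14, 9 were called, such as KIF3A and AP1B1, and others were not, such as CPEB2 and DAPK2. Of all 26 printed exons 19 were called, and some were printed because they were called. A match of these letters is not a binding site.

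Set against the longer exons of their own gene, microexons more often had the higher value. The comparison took 451 microexons in genes with at least 3 longer exons, and 262 of them (58.1%) had a difference above the median of those exons. The same comparison over 57600 longer exons, each against the others of its gene, gave 48.8%. Of the 180 called microexons 153 lay above the median, and most of the 271 that were not called did not. No such split by call was computed for longer exons. The genes of called microexons had a median of 39.2% of their longer exons called, and genes of the other microexons 25%. Of the 180 called microexons in this comparison, 15 lay in a gene with no called longer exon. Of the 271 others, 221 lay in a gene with at least 1.

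Microexons were also set against the exons next to them, but no matching share was computed for longer exons. An upstream neighbour was listed for 240 microexons, and 127 of these microexons (52.9%) had a higher difference than it. A downstream neighbour was listed for 248, and 133 of these microexons (53.6%) had a higher difference than it. Called microexons were higher in 69 of 97 (upstream) and 77 of 97 (downstream), and the others in 58 of 143 and 56 of 151. The neighbour was called beside 33% (upstream) and 37.1% (downstream) of called microexons, and beside 28% and 33.8% of the others, with overlapping intervals. Over all exons 35.8% were called.

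**Figure D5:**
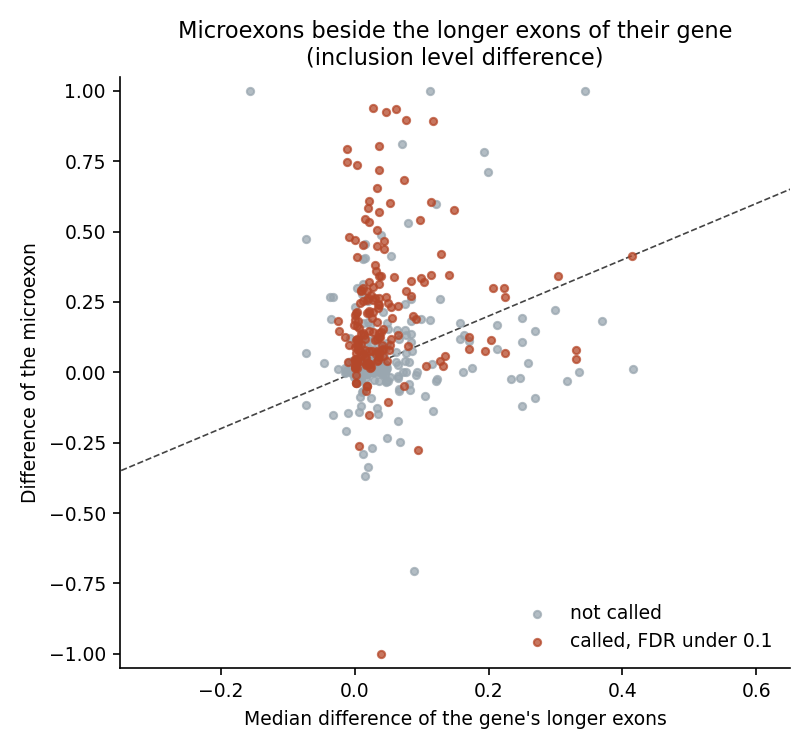
Inclusion level difference of 451 microexons (y axis) against the median difference of the longer exons of the same gene (x axis, genes with at least 3 longer exons). The dashed line marks equal values, the axes have different scales, and 262 points lie above the line, with called microexons (FDR under 0.1) in orange.

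Events of the same microexon with different flanking exons did not always have the same call or sign. In 346 microexons there was 1 event, and 100 of these were called (28.9%). In the 179 microexons with more events 101 were called (56.4%), beside 25.3% and 51.4% over all exons. An exon with more events had more chances of a call, because any single event sufficed. Whether the flanks themselves affected the share was not tested. Of these 101, 24 were called in every event, and 27 had events of both signs. In 3 of them, events of both signs were called. Since the inclusion form was credited with an effective length of 125 bases plus the exon, from 128 to 152 bases, and the reads were 126 bases long, every read on a microexon also crossed a junction.

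Microexons also took part in mutually exclusive choices, in which a transcript holds 1 exon or the other. Of 492 such events with a microexon 136 were called (27.6%, 23.9 to 31.8), beside 39.3% of all mutually exclusive events. The events held 228 distinct microexons, of which 220 were also members of the skipped-exon table, and 82 were in a called event. Of these 82, 48 were also called as skipped exons, as were 107 of the 220 listed in both (48.6%). The median size of difference was 0.112 in the 136 called events and 0.079 in called events of any length.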

How the data were processed

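Polyadenylated RNA of 1 control and 1 amiloride library was sequenced, and the authors ran rMATS on both and deposited 5 tables; of these the tables of skipped and of mutually exclusive exons were used. The deposited p-value and FDR of each event and the deposited inclusion level difference, a score from -1 to 1, were taken as they stood. Per the labels' processing notes, STAR 2.5.1 and the builds GRCh37 and hg19 were named; the rMATS version is not given in the sources used here. The 30 columns of values per library were not used, because they do not name the condition, so depth is not reported. The FDR of each event is the authors', but the calls were made here by setting a limit on it. A skipped exon was called on any single event under that limit, so the FDR of events does not hold as an FDR of exons. No test was computed.

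Events were grouped by exon, and the event of lowest FDR, then the smaller difference, stood for it. Exon classes come from GENCODE release 44 lifted to GRCh37, and the canonical transcript gave exon numbers. Motifs of 9 bases (5'SS) and 23 bases (3'SS) were scored, with frequencies from 300873 5'SS and 300290 3'SS and a pseudocount of 0.5. Exons not flanked by AG and GT, 9 microexons, were kept and score far below the others in 1 or both scores. Alternatives were FDR under 0.05 or 0.01, a difference of at least 0.1, exons with 1 event, flanked by AG and GT, or annotated, other length limits, and the median event. Scripts were tested on simulated data.

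The members and gene lists were chosen with earlier results of these data known. Named exons are the 8 of lowest FDR with the largest values, the 6 largest positive and 6 largest negative differences among called exons, the 5 shortest called, every called exon and 10 uncalled exons of the neural list, and up to 4 per other list by FDR; 2 of these exons are not reported here. The exons of ABCA2, HOOK2, IFFO1, COL6A1, MAP4K4, MTSS1L, MYEF2, CD47, SFT2D1, RPL41, SNRPG, UQCRH and PTGES3 and the similar pairs were named after their values were seen. Python 3.11.15, numpy 2.4.6, pandas 2.3.3 and scipy 1.17.1 were used.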

Additional observations from a re-analysis of the deposited data

How the results depend on the processing

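With 1 library per condition no replicate could be left out. No paired analysis was possible because there is a single library on either side. Of the 201 called microexons, 185 were called at an FDR under 0.05 and 162 at an FDR under 0.01. The count was 132 when a called event also had to have a difference of at least 0.1 in size, 100 among exons with exactly 1 event and 32 among exons of up to 15 bases, where fewer exons were counted. The median difference of called microexons, 0.141, became 0.2595 when a size of 0.1 was required and 0.114 with the median event of each exon. The positive share stayed between 91.0% and 95.5% under every alternative. Among exons of up to 15 bases the called minus uncalled difference was -2.06 for the mean 5'SS score and -1.14 for the mean 3'SS score. In the 83 of these exons flanked by AG and GT, an alternative chosen after seeing the data, they were -0.75 and 0.30, so 4 exons without AG and GT carried most of both values. The difference in called share between frame-keeping and other microexons was 1.85 percentage points in all 87 exons of up to 15 bases. Differences in exons between libraries cannot be told apart from the spread between libraries of 1 condition, and the number of reads behind an event was not used.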
